A study of Rattus norvegicus with 20 samples.

Results

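Segments of rat spinal cord on either side of a contusion, an impact injury that bruises and crushes the cord, were compared as 6 rostral (headward) against 6 caudal (tailward) libraries, out of 20 in the series. The rule for members, written with earlier results of these data known, used labels and no measured value: all rostral and caudal libraries at 1, 14 and 28 days post injury (DPI), with replicate numbers 1 and 2 at DPI-1 and DPI-14 and 1 and 3 at DPI-28. Each rostral library was set against the caudal library of the same day and number, which gave 6 pairs. All 12 libraries came from injured cord. The 6 groups were rostral cord and caudal cord on each of these 3 days, with 2 libraries each. Strain, sex, age, injury level, the length of the segments and whether both libraries of a pair came from 1 animal are not given in the sources used here. Nothing in the labels says that replicates were separate animals, and every p-value here reflects only how far these libraries vary, part of which may be technical.

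Cord tissue above and below a crush differs in which axons have been cut off from their cell bodies. Ascending sensory axons degenerate in the segment above the injury, and descending motor axons degenerate in the segment below it. Independently of injury, neurons and glia along the cord keep a record of their position in the Hox genes, transcription factors whose later-numbered members are active further toward the tail. Paxillin (Pxn), named in the series' title, is an adaptor of the focal adhesions that tie a cell's cytoskeleton to its matrix. The comparison asks whether RNA levels differ between the headward and tailward sides of the same injury.

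The gene symbols are used here only as labels of rows in the count tables, because many do not go with the reads counted under them. Over the 12 libraries, the row of beta-actin (Actb) held 1 read, the row of the astrocyte filament Gfap held 0, and that of myelin basic protein (Mbp) held 8. What a symbol's gene does is given below as background, and does not say which RNA the row counted. For the same reason no sequence is shown. After 4318 rows with a placeholder name had been dropped, 26134 named rows stayed, of which 12141 had enough reads to be tested.

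Depth moved with the segment. The rostral libraries held 3030611 to 5233315 reads in named rows and the caudal libraries 2097680 to 4260060, and the rostral library was the deeper in 6 of 6 pairs, by 1.09- to 2.20-fold. An exact two-sided sign-flip permutation test over the 6 pairs gave p = 0.0312, the smallest that 6 pairs can give. The number of rows with a read averaged 15150 in rostral and 14450 in caudal libraries (exact p = 0.219, higher in 4 of 6 pairs, n = 6), and 14420 and 14120 with every library thinned to 2097680 reads (exact p = 0.375, n = 6). With the deeper library of each pair thinned to the shallower one, the rows with an unadjusted p under 0.05 over all days were 281 higher in rostral and 187 higher in caudal cord, against 296 and 171 as deposited. The part of depth in these counts was not tested further.

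Across all days, no row passed the test between rostral and caudal cord. In edgeR's quasi-likelihood F test with a term for each pair, 0 of 12141 rows had an adjusted p under 0.05 (0%), and the lowest adjusted p was 0.9997. An unadjusted p under 0.05 was found for 467 rows (3.85% of those tested), fewer than the 5% this threshold gives where nothing differs. With each pair left out in turn, such rows numbered 226 to 821. The highest count, without DPI-14 replicate 1, was over 5% of its 12200 rows. Of the 467 rows, 296 were higher in rostral (2.44%) and 171 higher in caudal cord (1.41%). DESeq2, run on the same rows, called 1 (0.00824%), the row labelled Cdh22, and gave 500 rows at an unadjusted p under 0.05. The lean toward rostral among the 467 depended on scaling. The rostral share was 63.4% with edgeR's trimmed-mean (TMM) factors, 58.0% with DESeq2's size factors and 49.6% with library totals alone.

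The differences were small where there were reads to measure them. The median absolute log2 fold change over the tested rows was 0.19, and 3.58% of rows differed by more than 2-fold. The 95% interval of the rostral-to-caudal ratio lay inside 2-fold in either direction for 7243 rows (59.7%) and inside 4-fold for 10708 (88.2%). Among the 2073 rows averaging 100 CPM or more (CPM being counts scaled to a common library total with the TMM factors), 96.9% had an interval inside 2-fold and the median absolute log2 fold change was 0.11. Among the 3255 rows under 5 CPM, 2.15% had such an interval, so for most of these rows a difference of 2-fold or more was not excluded.

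**Figure D1:**
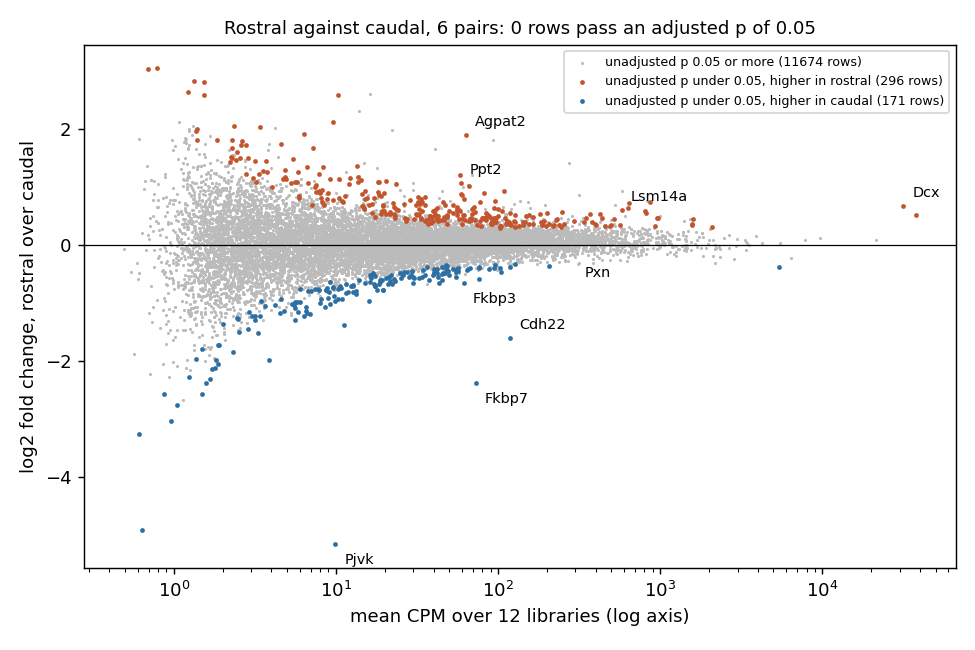
Each point is 1 of the 12141 tested rows, with the mean CPM over 12 libraries on a log axis and the log2 fold change of rostral over caudal cord from the paired edgeR fit on the vertical axis. The 296 red and 171 blue rows have an unadjusted p under 0.05, 0 pass after adjustment, and the spread narrows from rows with few reads to rows with many.

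Both flanking segments did differ from the injury epicenter when the same paired design was used, an analysis chosen after the data had been seen. The epicenter differed from rostral cord in 75 of 11933 rows (0.629%), 56 higher in the epicenter and 19 lower. It differed from caudal cord in 747 of 11685 rows (6.39%), 350 higher and 397 lower. These 2 comparisons share the epicenter libraries, and whether the epicenter was further from caudal than from rostral cord was not tested.

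Whole libraries were then compared with each other. Over the 8886 rows averaging 5 CPM or more, the rostral and caudal library of 1 pair had a median absolute log2 difference of 0.31 to 0.44 (median over the 6 pairs 0.37). Libraries of the same segment and day but another number differed by 0.32 to 0.72 (median 0.48, 6 comparisons). Libraries of the same segment on another day differed by 0.29 to 1.11 (median 0.52, 24 comparisons). With all 12 libraries, the pairs thus had a lower median than libraries of the same segment and day, but the ranges overlap. Without the libraries numbered 3, which stood apart from the others, the medians were 0.39 within pairs and 0.40 for the same segment and day. For the same segment on another day the median was 0.47. These medians still include the caudal library of DPI-1 replicate 2, which also stood apart. Its differences from the other libraries not numbered 3 ran from 0.44 (its rostral partner) to 0.87 (caudal DPI-14 replicate 2). With this library also set aside, libraries of the same segment and day differed by 0.32, 0.33 and 0.46. The pairs left differed by 0.32, 0.35, 0.39 and 0.41. The middle value for the same segment and day (0.33) then lay below the middle values of the pairs (0.35 and 0.39). Which kind had the lower median therefore depended on this library. The variance in log2(CPM + 1) was split in each row, and the median of each part was taken over rows separately. The pair (its day and number together, 5 degrees of freedom) held a median of 71.5% (mean 68.15%). The segment held a median of 2.43% (mean 5.665%) with 1 degree of freedom. What was left had a median of 22.6% (mean 26.19%) with 5 degrees of freedom.

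**Figure D2:**
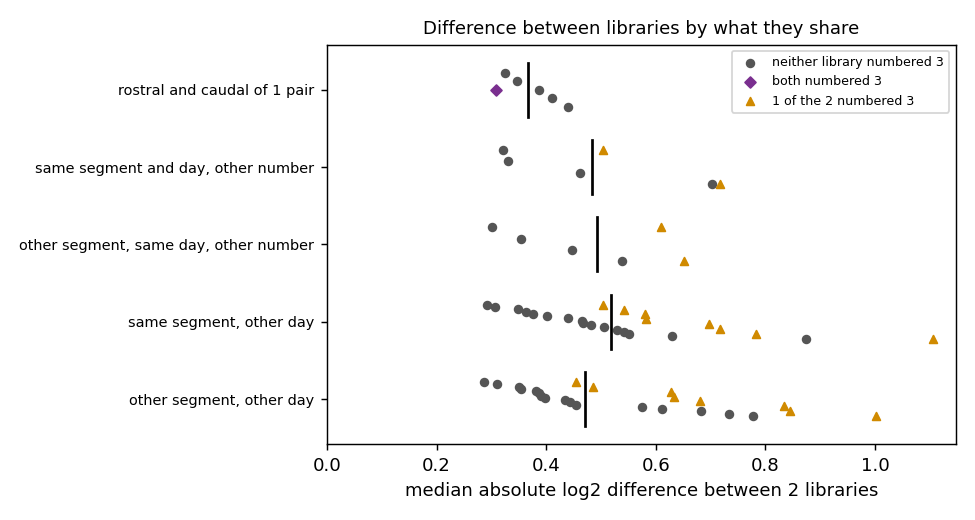
Each point is a comparison of 2 libraries, placed by the median absolute log2 difference over 8886 rows, with the rows of the plot grouping comparisons by what the libraries share and black bars at the medians. Rostral and caudal libraries of 1 pair sit at 0.31 to 0.44, the lowest median (0.37) of the 5 kinds. Comparisons with a single library numbered 3, or with the caudal library of DPI-1 replicate 2, mostly sit to the right.

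One pair opposed the other 5 in 2 rows with a wide caudal excess, Fkbp7 and Pjvk, both chosen here after their values had been seen. Fkbp7 encodes a prolyl isomerase of the endoplasmic reticulum and Pjvk encodes pejvakin, a gasdermin-family protein needed for hearing. At DPI-1 the row labelled Fkbp7 stood at 13.97 CPM in rostral and 111.9 CPM in caudal cord in replicate 1, and at 36.9 and 205.2 in replicate 2. At DPI-28 it stood at 24.5 and 167.9 CPM in replicate 1 and at 5.56 and 75.6 in replicate 3. At DPI-14 it stood at 7.64 and 69.4 CPM in replicate 2, but at 126.8 in rostral and 33.1 in caudal cord in replicate 1. Caudal cord was therefore higher in 5 of 6 pairs, and the rostral and caudal ranges overlapped only through that pair.

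The row labelled Pjvk followed the same libraries. It had 36, 89, 9, 151 and 46 reads in the caudal libraries of DPI-1 replicates 1 and 2, DPI-14 replicate 2 and DPI-28 replicates 1 and 3, and 0 reads in the 5 rostral libraries paired with them. In DPI-14 replicate 1 it had 20 reads in the rostral library and 0 in the caudal one. All 6 pairs thus had reads in 1 library and 0 in the other. In the 6 epicenter libraries it had 14 reads in DPI-1 replicate 2 and 0 in the other 5. Fkbp7 stood at 20.7 to 89.6 CPM in the epicenter libraries (scaled there without TMM factors).

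With all 6 pairs neither row passed edgeR's test. Fkbp7 had a log2 fold change of -2.38 (SE 0.81, adjusted p = 0.9997) and Pjvk of -5.16 (SE 1.91, adjusted p = 0.9997). With DPI-14 replicate 1 left out, edgeR called 2 of 12200 rows (0.0164%), and they were these. Fkbp7 then had a log2 fold change of -2.999 (SE 0.21, adjusted p = 2.47e-05), and Pjvk an adjusted p of 0.00194. The pair left out is the 1 that opposed the others in these rows, so these values depend on that choice, are descriptions of the remaining 5 pairs and support nothing further. Over all 6 pairs Pjvk held 331 caudal and 20 rostral reads. In the RefSeq gene table (assembly GRCr8) the 2 genes lie on chromosome 3 with 0 genes between them, and 35 genes lie between Hoxd1 and the nearer of them. Of the tested rows among the 10 genes on either side, 0 of 5 had an unadjusted p under 0.05.

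That pair was the lone dissenter in more rows than any other, and the other pair of DPI-14 came next. There were 688 tested rows (5.67%) in which DPI-14 replicate 1 alone ran against the other 5 pairs, and 562 (4.63%) for DPI-14 replicate 2. The 2 pairs at DPI-1 had 328 (2.70%) and 353 (2.91%), and those at DPI-28 had 174 (1.43%) and 187 (1.54%). Where nothing differs, a given pair of 6 stands alone with a probability of 0.0312. Rows share libraries, so these shares are descriptions. Rows in which the 5 pairs all differed by over 2-fold one way and the remaining pair by over 2-fold the other way numbered 3 for DPI-14 replicate 1 (Fkbp7, Pjvk and F5) and 0 for every other pair. Leaving this pair out raised the rows with an unadjusted p under 0.05 from 467 to 821, against 226 to 620 when any other pair was left out. Whether the segment labels of this pair are exchanged was not tested, and the labels are used as given throughout.

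**Figure D3:**
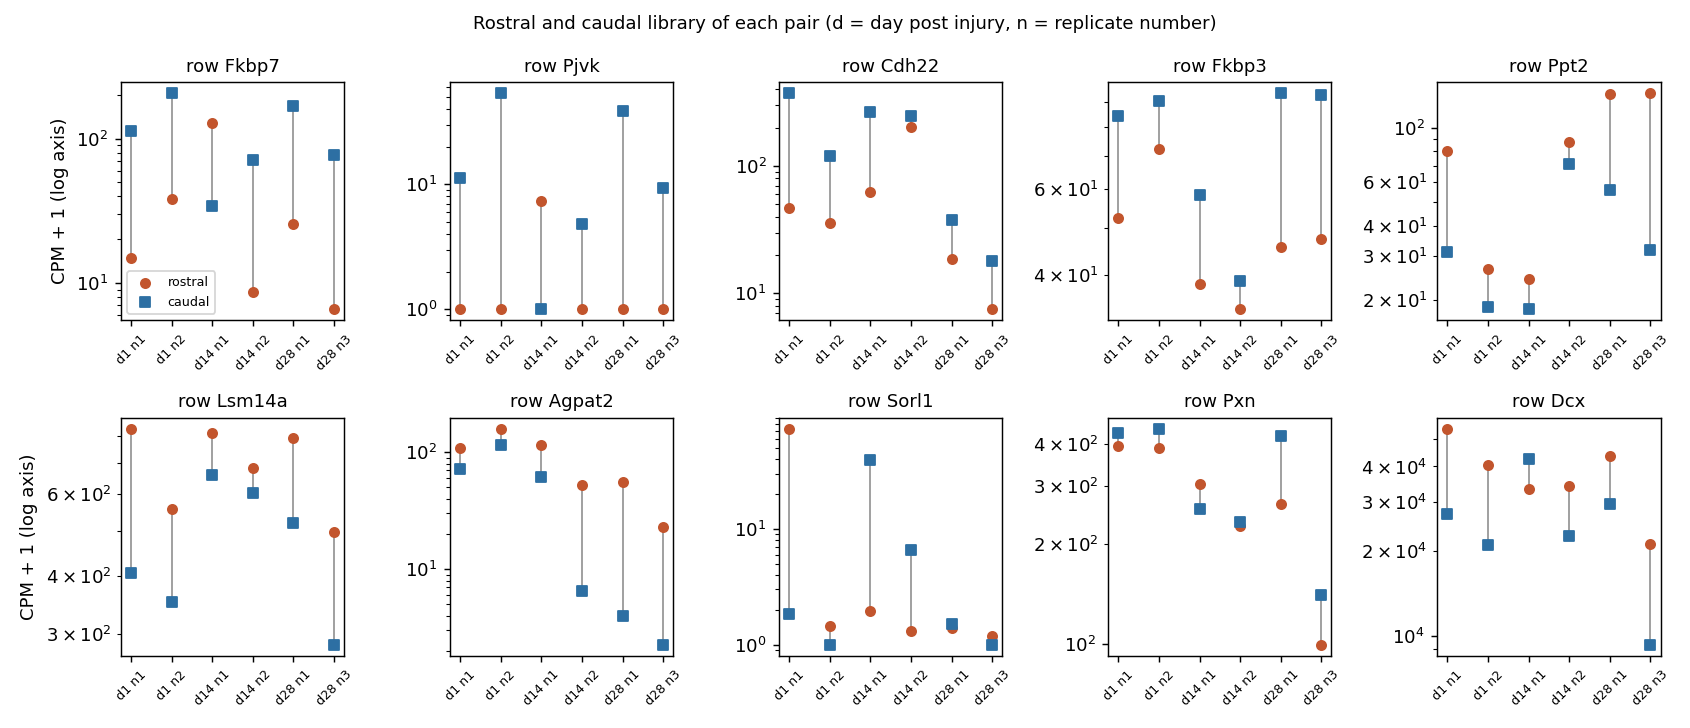
Rostral (red circles) and caudal (blue squares) libraries of each of the 6 pairs for 10 rows, as CPM + 1 on log axes that differ between panels, with pairs ordered by day (d) and replicate number (n). In Fkbp7 and Pjvk the caudal library is higher in every pair but DPI-14 number 1, while Cdh22, Fkbp3, Ppt2, Lsm14a and Agpat2 keep 1 direction in all 6 pairs.

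The rows next described are those of lowest unadjusted p among rows with at least 10 CPM in the higher segment and 1 direction in all 6 pairs. None had an adjusted p under 0.05 in edgeR. In all, 218 rows (1.8%) were higher in rostral and 161 rows (1.33%) higher in caudal cord in all 6 pairs. Where nothing differs, 6 pairs share 1 direction with a probability of 0.0312, both directions together. Since this agreement was part of the choice, it supports nothing further.

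On the caudal side the first was Cdh22, which encodes a cadherin, a calcium-dependent adhesion protein of brain. At DPI-1 it stood at 46.0 CPM in rostral and 371.3 in caudal cord in replicate 1, and at 34.4 and 119.1 in replicate 2. At DPI-14 the values were 61.8 and 264.5 CPM in replicate 1 and 201.3 and 244.5 in replicate 2, and at DPI-28 they were 17.5 and 36.8 in replicate 1 and 6.49 and 16.8 in replicate 3. The caudal library was higher in every pair, while levels differed so far between days that the segments overlapped. The fitted caudal excess was 3.05-fold (95% interval 1.95 to 4.78, edgeR adjusted p = 0.9997, DESeq2 adjusted p = 4.8e-05). By day the log2 fold change was -2.41, -1.18 and -1.21.

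Fkbp3, a nuclear prolyl isomerase, ranged from 33.1 to 71.2 CPM in rostral cord (median 45.6) and from 37.9 to 93.0 in caudal cord (median 86.4), a caudal excess of 1.58-fold (95% interval 1.23 to 2.02). Pex11g, a peroxisomal membrane protein, was 2.62-fold higher in caudal cord (95% interval 1.52 to 4.50, 508 reads in all). Antxr2, a receptor that binds basement-membrane proteins, was 1.94-fold higher (95% interval 1.34 to 2.82). The other 6 with a symbol were Spcs1, RSA.14.44, Dele1, Ttc14, Rerg and Phka1, and the 10 caudal rows together spanned 1.49- to 3.05-fold with unadjusted p from 0.000155 to 0.00784. In each of the 10 the rostral and caudal ranges overlapped.

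On the rostral side the first was Ppt2, a lysosomal thioesterase. It ranged from 23.4 to 137.0 CPM in rostral cord (median 82.9) and from 17.3 to 70.3 in caudal cord (median 30.5), a rostral excess of 2.08-fold (95% interval 1.46 to 2.96). Lsm14a, an RNA-binding protein of cytoplasmic processing bodies, was the second and had many more reads. On day 1 its rostral libraries stood at 829.1 and 555.4 CPM and their caudal partners at 403.9 and 350.3. On day 14 the rostral libraries stood at 812.5 and 680.8 CPM and the caudal ones at 657.4 and 603.2, and on day 28 at 789.2 and 495.5 against 517.9 and 283.4. Every rostral value exceeded its caudal partner, while the lowest rostral value lay below 3 of the caudal ones. The rostral excess was 1.51-fold (95% interval 1.22 to 1.89).

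Sarm1, an enzyme that breaks down NAD and drives the self-destruction of injured axons, was 1.502-fold higher in rostral cord (946 ± 132 against 676 ± 283 CPM, SD, n = 6). Ddx54, an RNA helicase, was 1.47-fold higher (237 ± 36.0 against 165 ± 44.3 CPM, SD, n = 6). Selplg, the ligand that white blood cells present to P-selectin, was 2.32-fold higher on 401 reads in all. The others were Tll2, Vom2r6, Usp28, Dap3 and Gpc5. The 10 rostral rows spanned 1.43- to 2.32-fold, with unadjusted p from 0.00052 to 0.00374, and 0 of the 10 had segments that did not overlap.

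A full separation of the 6 rostral from the 6 caudal libraries occurred in 8 rows (0.0659% of those tested), 4 in each direction (0.0329%), and the rows named from it were chosen after their values were seen. Slfn1, a schlafen-family gene, had the most reads of them. It ranged from 92.1 to 118.8 CPM in rostral cord and from 63.2 to 91.3 in caudal cord, so that the highest caudal library lay just under the lowest rostral one. The rostral excess was 1.30-fold (log2 SE 0.15, edgeR adjusted p = 0.9997). Psg29 stood at 21.0 ± 2.38 CPM in rostral and 15.2 ± 2.30 in caudal cord (SD, n = 6). The other 6 rows, Rnpep, Mir323, Ccdc87, LOC103691423, Gtpbp4.ps2 and Kdm1b, had 67 to 193 reads over the 12 libraries.

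Whether the rostral-caudal difference changed with time was tested with a segment term for each day. In edgeR 0 of 12141 rows passed for a change with day (0%). An unadjusted p under 0.05 was reached by 145 rows. DESeq2 called 2 (0.0165%), Sorl1 and Fam149b1. Within each single day edgeR called 0 rows (0%), while 319 rows on day 1, 150 on day 14 and 300 on day 28 had an unadjusted p under 0.05, all again under 5% of the rows. DESeq2 called 3 rows for day 1 (0.0247%; Cdh22, Egfl7 and Sorl1), 1 for day 14 (0.00824%; Sorl1) and 3 for day 28 (0.0247%; Akna, Agpat2 and Metap2).

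Agpat2, an acyltransferase of phosphatidic acid synthesis, came nearest to a difference within a day. At DPI-1 it stood at 107.1 CPM in rostral and 71.2 in caudal cord in replicate 1 and at 158.4 and 114.4 in replicate 2. At DPI-14 it stood at 114.6 and 60.2 in replicate 1 and at 51.3 and 5.54 in replicate 2. At DPI-28 it stood at 54.8 and 3.01 in replicate 1 and at 21.9 and 1.27 in replicate 3, from 275 and 12 reads and from 118 and 7 reads. The rostral library was higher in 6 of 6 pairs, and the log2 fold change was 0.53 on day 1, 1.88 on day 14 and 4.13 on day 28 (SE 0.54, edgeR adjusted p = 0.156). Neither the DPI-28 difference nor the change with day (edgeR adjusted p = 1) passed in edgeR's main fit, while DESeq2 called DPI-28 (adjusted p = 5.0e-08). With no filter on low counts edgeR called both. EdgeR also called DPI-28 in each fit without 1 pair of DPI-1 or of DPI-14, and in no other alternative.

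Sorl1, a sorting receptor of endosomes, had the lowest p for a change with day (edgeR adjusted p = 0.14, DESeq2 adjusted p = 1.93e-06, under 0.05 in 6 of 14 alternative settings), and it rested on few libraries. It held 233 reads in the rostral library of DPI-1 replicate 1 against 3 in the caudal one. In DPI-14 it held 3 against 78 reads in replicate 1 and 1 against 13 in replicate 2. The other 3 pairs had 2 reads or fewer in each library. The fitted log2 fold change was 6.30 on day 1, -4.90 on day 14 and 0.37 on day 28.

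Akna, an AT-hook protein, stood at 71.1 CPM in rostral and 12.53 in caudal cord in DPI-28 replicate 1 and at 34.3 and 5.06 in replicate 3. At DPI-14 it ran the other way, at 29.1 and 30.6 CPM in replicate 1 and 29.0 and 77.5 in replicate 2. The log2 fold change by day was 1.04, -0.76 and 2.62. Fam149b1 (2.12, -1.60 and 0.35) and Egfl7, a secreted protein of endothelium (-2.17, 0.12 and 0.75), were the other 2 rows of lowest p for a change with day. All 3 had an edgeR adjusted p of 1 for the change, while DESeq2 gave Fam149b1 an adjusted p of 0.0197.

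The 3 rows with the most reads leaned rostral or showed no direction. Dcx, doublecortin in the label, a microtubule protein of migrating neurons, held 1336537 reads. Its level was 37870 ± 11200 CPM in rostral and 25340 ± 10920 in caudal cord (SD, n = 6), a 1.58-fold rostral excess (95% interval 1.19 to 2.10, unadjusted p = 0.00359, edgeR adjusted p = 0.9997) seen in 5 of 6 pairs. The exception was again DPI-14 replicate 1, with 33170 CPM in rostral and 42530 in caudal cord, and without that pair the log2 fold change was 0.86 (edgeR adjusted p = 0.188). Dcaf7, a WD-repeat scaffold, held 1594167 reads and was 1.44-fold higher in rostral cord (95% interval 1.02 to 2.03, 5 of 6 pairs). Nsg2, a vesicle protein of neurons, held 814154 reads and had no 1 direction, at 1.06-fold with an interval of 0.43 to 2.59 and 3 pairs each way.

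Pxn, the row of the series' title, was not called between the segments. It ranged from 98.8 to 393.8 CPM in rostral cord (median 283.2) and from 139.4 to 444.6 in caudal cord (median 338.0). Caudal cord was higher in 5 of 6 pairs by a fitted 1.16-fold (95% interval 0.93 to 1.45, edgeR adjusted p = 0.9997). The mean paired difference of log2(CPM + 1) was -0.21 ± 0.33 (SD, n = 6 pairs; exact two-sided sign-flip p = 0.219). The interval allows a caudal excess of up to 1.45-fold. Of 22 genes listed for focal adhesions, 17 rows were tested and 0 called, 9 higher in rostral and 8 in caudal cord, with a median log2 fold change of 0.02 against 0.04 over all tested rows. Of 17 angiogenesis genes, 7 rows were tested and 0 called, 3 higher in rostral and 4 in caudal cord, with a median of -0.19. Vegfa, Kdr and Pdgfb, a growth factor of vessels, its receptor and a growth factor that recruits pericytes, were listed with 0 reads.

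None of the rows named for Hox genes, the position record of the cord, was called. Of 36 such rows 18 were tested, 0 were called and 0 had an unadjusted p under 0.05. They were higher in rostral cord in 6 and in caudal cord in 12, with a median log2 fold change of -0.09 against 0.04 over all tested rows. That median was 0.04 when DPI-1 replicate 1 was left out. The range ran from -0.88 for Hoxc6 to 0.95 for Hoxd4, both on under 100 reads (74 and 96). Hoxd1, with 2376 reads, stood at 56.0 ± 22.8 CPM in rostral and 50.2 ± 19.4 in caudal cord (SD, n = 6), a ratio of 1.11 (95% interval 0.82 to 1.52). In 10 of the 18 the interval lay inside 2-fold either way and in 15 inside 4-fold. Hoxc11, Hoxc12 and Hoxc13, which are numbered for the tail end, had 0 reads.

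Genes that flank the Hox clusters were also looked at, since the symbols do not go with the reads. Of 68 rows for the 10 nearest genes on each side of the clusters, 46 were tested and 0 called, 26 higher in rostral and 20 in caudal cord, with a median log2 fold change of 0.04. Prr13, in the flank of the Hoxc cluster, was the 1 row with an unadjusted p under 0.05 (2.33-fold higher in caudal cord, 5 of 6 pairs). Of 15 other position genes, such as Pbx, Meis and Cdx factors, 6 were tested, 3 each way.

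**Figure D4:**
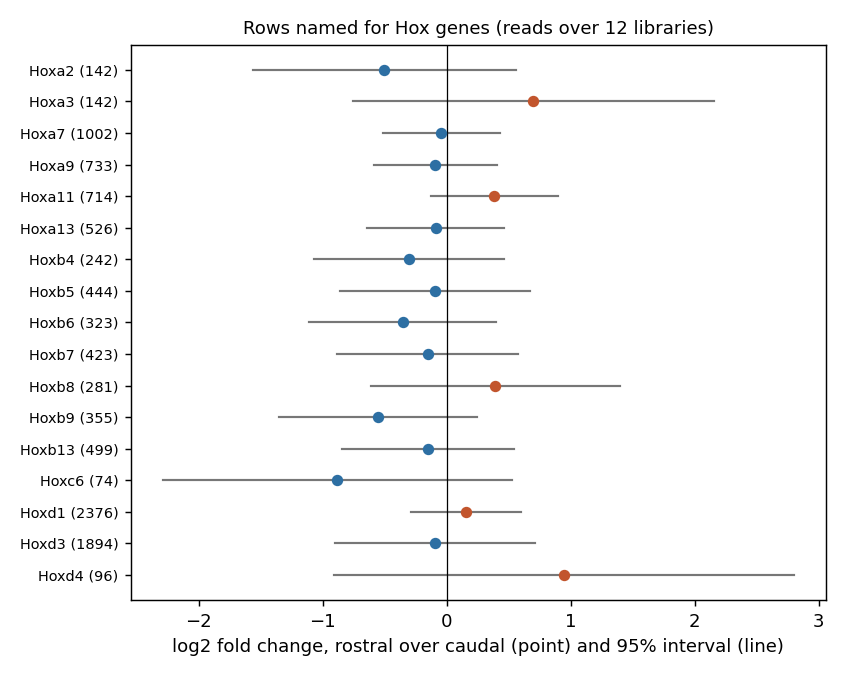
Log2 fold change of rostral over caudal cord (points, red where positive and blue where negative) with 95% intervals (lines) for tested rows named for Hox genes, with their reads over 12 libraries in brackets. Every interval drawn crosses 0, and those of Hoxc6 and Hoxd4 are among the widest.

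Marker genes of cell types were not called either, and many of their rows were empty. Over 12 lists with 63 markers, 32 rows were tested, 0 were called and 1 had an unadjusted p under 0.05, while 14 rows had 0 reads. The defining markers Gfap (astrocytes), Aif1 (microglia), Mag (myelin), Isl1 and Mnx1 (motor neurons) and Nefl and Nefm (neurons) were at 0, so the labelled tissue could not be checked against them. The summed level of the red blood cell list was 127.4 to 304.8 CPM in rostral and 88.6 to 425.2 in caudal cord, that of the Schwann cell and nerve root list 596.2 to 1524 and 414.5 to 1428, and that of the endothelial list 197.1 to 357.9 and 180.4 to 288.8. The ranges of the segments overlapped in all 3. In whole tissue, fewer cells of a type and less RNA per cell cannot be told apart.

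Rows next to each other in the gene order tended to share a direction, a pattern sought after the values were seen. Of the tested rows, 10100 could be placed in the gene order of the RefSeq table. Adjacent rows had the same direction in 58.3% of 10078 cases, against 55.3% for rows 2 apart, 51.8% for rows 5 apart and 50.8% for rows 200 apart. Among rows of at least 20 CPM the share was 63.0% for adjacent rows and 51.7% for rows 200 apart. Of the 398 rows with an unadjusted p under 0.05 and a tested neighbour within 5 genes, 28.9% had a neighbour that also had an unadjusted p under 0.05 and the same direction, and 6.03% had one with the opposite direction. For the 9563 other rows the shares with a neighbour of that kind were 13.4% and 7.28%. These shares are descriptions across rows, which share libraries and are not independent.

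**Figure D5:**
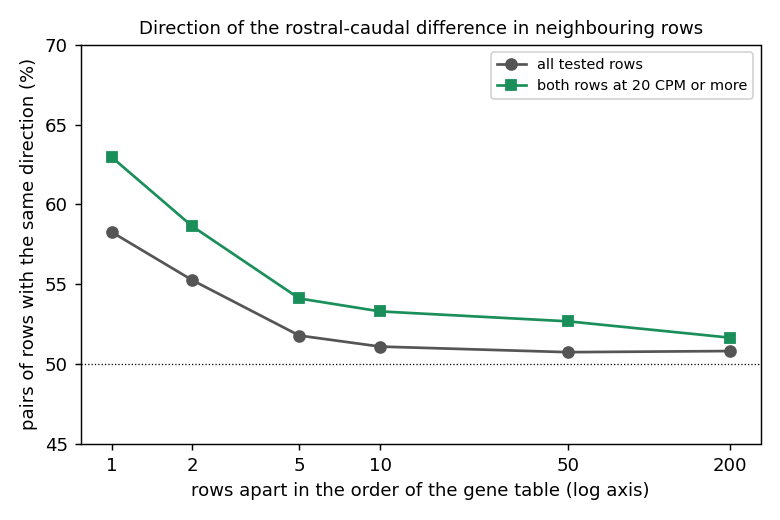
Share of row pairs in which the rostral-caudal difference had the same direction, against how many rows apart they lie in the gene table (log axis), for all tested rows and for pairs with both rows at 20 CPM or more. The share is highest for adjacent rows (58.3% and 63.0%) and nears 50%, the dotted line, by 5 to 10 rows apart in all tested rows.

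There were 7 runs of at least 3 such rows in 1 direction, with 25 rows in all. On chromosome 2, Nadk2, Lmbrd2 and Il7r, a mitochondrial NAD kinase, a membrane protein and the interleukin-7 receptor, stood side by side with 0 tested rows between them. Lmbrd2 ranged from 46.2 to 99.7 CPM in rostral cord (median 71.3) and from 11.4 to 86.9 in caudal cord (median 26.4). Il7r ranged from 35.7 to 106.4 CPM in rostral cord and from 15.3 to 98.4 in caudal cord. All 3 rows were higher in rostral cord in 5 of 6 pairs, with log2 fold changes of 0.79 to 1.203. On chromosome 1, Zfp518a, Blnk (an adaptor of B-cell signalling), Dntt, Tll2 and Tm9sf3 were higher in rostral cord by 0.42 to 1.01 on the log2 scale. On chromosome 3, Snx5, Ovol2, Kat14, Zfp133 and Dzank1 were higher there by 0.68 to 1.05. Cfb, C4a and Ppt2 on chromosome 20, the first 2 being complement genes, and Sele, Selp and F5 on chromosome 13, the selectins E and P and a clotting factor, were the other rostral runs. Togaram1, Fkbp3 and Fancm on chromosome 6 and Parvb, Rtl6 and Prr5 on chromosome 7 were the caudal ones. Between the members lay 6 other tested rows for Cfb, C4a and Ppt2, 2 for Parvb, Rtl6 and Prr5, and 1 for each of the other 4 runs. Zfp133, Cfb, Sele and Selp had their run's direction in 4 of 6 pairs, and every other row of the runs in 5 or 6. Few reads lay under Sele (65 in rostral and 8 in caudal cord) and Selp (39 and 6). All 25 rows had an edgeR adjusted p of 0.9997.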

How the data were processed

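Per the labels' protocols, Trizol was used for extraction and the KAPA RNA HyperPrep Kit, whose RiboErase step removes ribosomal RNA, for the libraries. HISAT2, featureCounts and the build rn6 appear in the submitters' processing notes; versions, annotation and strand are not given in the sources used here. Raw read counts were deposited as 1 table per library, each with 30452 rows. The 4318 placeholder rows held 5.87% to 7.37% of reads. The members, lists and tests were chosen with earlier results of these data known.

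The 12 libraries were fitted with edgeR 4.0.16 under R 4.3.3 (TMM, filterByExpr at a minimum count of 10, robust quasi-likelihood F test), with 6 pair terms and a segment term (5 residual degrees of freedom), or a segment term per day (3). Benjamini-Hochberg adjustment ran over all tested rows, with a threshold of 0.05. The common biological coefficient of variation was 0.305. DESeq2 1.42.0 was an alternative. Standard errors are on the log2 scale and intervals cover 95%. Libraries of a group were not identical (chi-square per degree of freedom 14.8 to 110). Named rows are Pxn, the 10 in each direction described above, the 5 of lowest p for a change with day, tested Hox rows (1 is not reported here) and the 3 with most reads; for any other, the text says that it was picked with its values known. The steps were run on simulated counts with the same spread for all rows and no difference between pairs beyond depth. That run does not show how they perform with the pair differences of these data. Counting floors cover counting error only. Figures used Python 3.11.15, pandas 2.3.3, numpy 2.4.6 and matplotlib 3.10.9.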

Additional observations from a re-analysis of the deposited data

Results flagged for a closer look

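Among 82 rows whose 6 paired differences were checked, 3 had a single pair far from the other 5. Chance alone flags about 1 in 20 groups that were not chosen by their values. Many of these rows were chosen by their values, so that rate does not apply to them. Fkbp7 and Pjvk were added after their opposing pair had been seen, so the flag of Fkbp7 adds no support. The row labelled Fkbp7 had a rostral minus caudal difference of 1.91 on the log2(CPM + 1) scale in DPI-14 replicate 1, against -3.54 to -2.44 in the other pairs. The row labelled Hoxa13 had 0.51 in DPI-14 replicate 2, against -0.35 to -0.04 elsewhere. The row labelled Ccdc87 had -2.29 in DPI-1 replicate 2, against -1.08 to -0.41 elsewhere, and held 112 reads in all.

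Rows with a placeholder name, which entered no comparison, held a share of reads that was highest in the caudal library of DPI-28 replicate 3, at 7.37%, against 5.87% to 7.09% in the other 11 libraries. The mean share was 6.54% in rostral and 6.63% in caudal libraries (exact two-sided sign-flip p = 0.625, n = 6 pairs).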

How the results depend on the processing

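The counts of called rows were 0 over all days, for a change with day, and for day 1, day 14 and day 28 alone. In that order they were 47, 36, 29, 5 and 32 with no filter on low counts, where the median prior degrees of freedom of the fit was infinite (9.11 with the filter), and 12 of the 47 rows had 1 direction in all 6 pairs. DESeq2 gave 1, 2, 3, 1 and 3. Adding the epicenter libraries as another segment gave 1 row for a change with day (Sorl1, adjusted p = 0.0346). Leaving out each pair in turn gave 0 to 2, 0 to 2, 0 to 16, 0 to 0 and 0 to 5 rows. The 16 on day 1 came without DPI-1 replicate 2, which leaves that day 1 pair, and the 5 on day 28 without either pair of DPI-1. The all-days rows came without DPI-14 replicate 1 (Fkbp7 and Pjvk) and without DPI-1 replicate 2 (RT1.S3). The counts stayed at 0 with DESeq2's size factors, library totals, placeholder rows kept and, chosen after seeing the data, thinning to equal depth.

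Without the replicate block the 5 counts were 0, with 245 rows at an unadjusted p under 0.05 over all days against 467 with it. Deviations of same-numbered libraries correlated at 0.26 on day 1, -0.11 on day 14 and 0.79 on day 28, so the numbers were not shown to pair the libraries throughout. The log2 fold change of Pxn ranged from -0.30 to -0.12 over the fits without 1 pair, and the Hox median from -0.16 to 0.04.

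The 20 rows described above were chosen by lowest p among rows with 1 direction in every pair. Of these, 0 changed sign in 14 alternatives, and Ppt2, Tll2, Vom2r6, Cdh22 and Pex11g were called with no filter. Since 1 direction in every pair was part of the choice, leaving out a pair could hardly turn their sign. The absence of sign changes in these rows therefore supports nothing further. Direction turned, with no call on either side, in 8 other rows. Their log2 fold changes over the fits without 1 pair were Sorl1 (-2.56 to 1.65), Fam149b1 (-0.22 to 0.71), Nsg2 (-0.24 to 0.47), Hoxa7 (-0.15 to 0.094), Hoxd3 (-0.40 to 0.21), Hoxb13 (-0.31 to 0.11), Hoxb7 (-0.35 to 0.092) and Hoxb5 (-0.37 to 0.077). Sorl1 also turned with DESeq2 (0.14) and, with no replicate block, Sorl1 (0.33), Nsg2 (-0.25) and Hoxa7 (0.0049). The cause was not tested. All 8 rows averaged over 5 CPM in each segment, but the median of Sorl1 was 0.43 CPM in rostral and 0.68 in caudal cord. Over all tested rows, intervals were widest under 5 CPM (median half-width 1.41 on the log2 scale).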
